A study of Danio rerio with 9 samples.

Results

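Livers from wild-type zebrafish larvae exposed to 10 mM metronidazole for 24 h were compared with livers from larvae exposed to 1 mM of the same drug for as long. The libraries were chosen by the treatment that their titles and labels name, which gave 3 libraries at 10 mM and 3 at 1 mM, 6 of the 9 libraries of the series. The other 3 libraries came from larvae given vehicle for 24 h, and they are shown beside the 2 doses. All 9 libraries hold polyA RNA of microdissected liver and share the wild-type genotype, so no nitroreductase transgene is named for any group. The labels give neither the age of the larvae nor the number of livers in a library, and they do not say whether the replicates came from separate larvae, pools or clutches. The p-values therefore measure only the spread between libraries. Of the 32520 genes in the deposited counts, 16766 passed a filter on low counts and were tested.

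Metronidazole is a nitroimidazole antibiotic that is commonly taken to do little harm to most cells until a nitroreductase converts it to a toxic product. Zebrafish laboratories use it to kill cells that carry a bacterial nitroreductase, and wild-type larvae given the drug show what it does without that enzyme. The larval liver is a growing organ, in which hepatocytes still pass through the cell cycle while they secrete plasma proteins, store and release glucose, make bile acids and clear foreign compounds. Cells answer a toxic load with a few well described programmes. The transcription factor Nrf2 turns on glutathione synthesis and NADPH supply when electrophiles modify its inhibitor Keap1. ATF4 turns on amino acid uptake and tRNA charging when translation factor eIF2 is phosphorylated. AP-1 factors of the Fos and Jun families are immediate early genes, transcribed within minutes of many stimuli.

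The library totals lay between 29993109 and 41300673 counted reads. The 1 mM replicate 3 library stood apart from the others, with a coordinate of -46.9 on the second principal component against -2.14 to 12.7 for the other 8, and with a normalisation factor of 0.877 against 0.963 to 1.11. The 10 mM replicate 3 library is headed as lane 8 in the deposited table and the other 8 as lane 7, so lane could not be compared within a dose beyond leaving that library out. Counts of calls in the lists below are given without a library wherever leaving it out moved them by more than 1.5 times. For single genes only some of the lost calls are given. Of the 421 genes of the pathway lists that were called, 264 kept the call under every alternative fit that gave a value. A gene without a remark may therefore have lost its call in some fit. The markers matched the labelled tissue, since the 14 hepatocyte markers summed to between 164093 and 231266 CPM (counts per 1000000 reads of the TMM-scaled library) in every library. Of 163 marker genes of 16 cell types that were tested, 6 were higher and 6 lower at 10 mM than at 1 mM. These are smaller shares than the 9.39% higher and 9.41% lower among all tested genes. Higher markers numbered 10 without 1 mM replicate 3, of which 4 were hepatocyte markers, 3 without 1 mM replicate 2 or 10 mM replicate 2, and 1 without 10 mM replicate 3. Lower markers numbered 1 without 10 mM replicate 1 and 2 without 10 mM replicate 3. The 22 exocrine pancreas markers summed to 8446 to 25949 CPM at 1 mM and 13212 to 28023 CPM at 10 mM, the ranges overlapped, and 0 of them passed the test, as did 0 when any 1 library other than 1 mM replicate 1 was left out and 1 without that library. The 8 endocrine pancreas markers all had positive log2 differences, with a median of 1.70, and 1 was called. They summed to 0.764 to 12.9 CPM at 1 mM, 4.27 to 45.3 at 10 mM and 4.68 to 46.3 in vehicle. Calls numbered 4 without 1 mM replicate 1 and 2 without 10 mM replicate 1. They numbered 0 without vehicle replicate 3 or without replicate 2 or 3 of either dose. In bulk RNA, fewer cells of a type and less RNA per cell cannot be told apart.

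At the higher dose 3153 of the 16766 genes passed the test, which is 18.8% (edgeR's quasi-likelihood test, Benjamini-Hochberg adjusted p under 0.05). Of these, 1575 were higher at 10 mM (9.39% of those tested) and 1578 were lower (9.41%). The counts rest partly on single libraries, and without 10 mM replicate 1 they were 1014 higher and 949 lower. The median log2 difference over all tested genes was -0.04, over the higher genes 0.85 and over the lower genes -0.96. All 3 libraries of one dose lay above all 3 of the other for 5648 genes (33.7%), and 3100 of the called genes (98.3%) were among them. Of the tested genes 3.71% were called with at least a doubling (622 genes) and 4.43% with at least a halving (743 genes). Changes of at least 4-fold were found for 166 higher and 145 lower genes. Each dose was also compared with vehicle in the same fit. At 1 mM, 165 genes passed the test (0.984%), of which 149 were higher (0.889%) and 16 lower (0.0954%) than in vehicle, and at 10 mM 2878 passed it (17.2%), of which 1633 were higher (9.74%) and 1245 lower (7.43%). The 1 mM counts rest on the vehicle libraries, with 19, 19 and 47 higher and 3, 2 and 4 lower without vehicle replicate 1, 2 and 3, and with 53 higher and 1 lower without 1 mM replicate 2. Without 1 mM replicate 1 or 3 the lower counts were 25 and 29. At 10 mM, the lower count was 809, 780 and 770 without vehicle replicate 1, 2 and 3, and 776 and 805 without 10 mM replicate 1 and 3, while the higher count was 1084 without vehicle replicate 3. These 3 comparisons share libraries, so their values are set side by side and are not independent of one another.

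**Figure D1:**
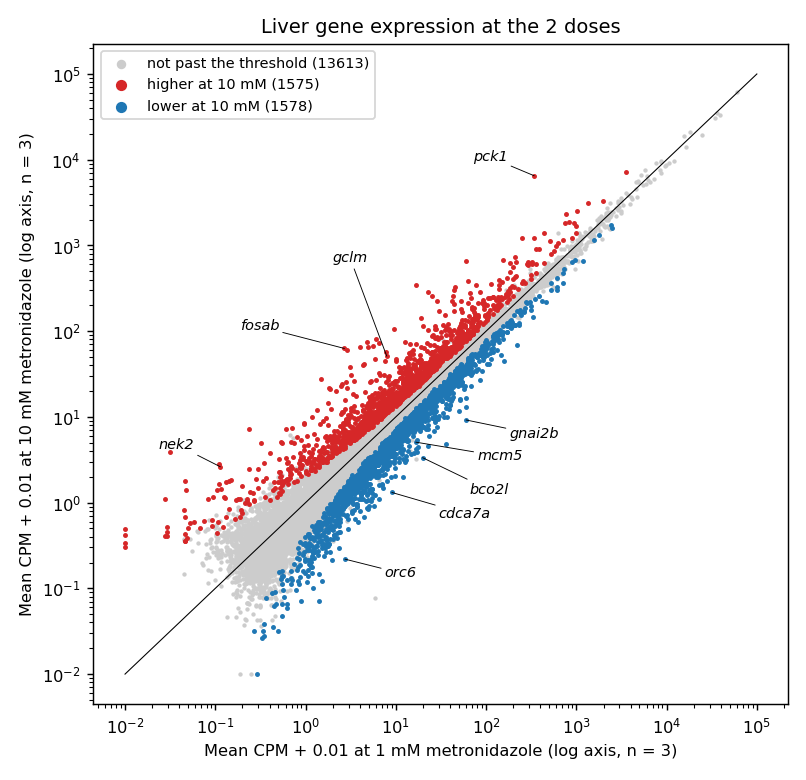
Mean CPM of every tested gene at 1 mM (horizontal axis) and at 10 mM (vertical axis), with 0.01 CPM added and both axes on a log scale. Red points are the 1575 genes higher at 10 mM, blue points the 1578 lower and grey points the genes that did not pass the test. The named points lie away from the diagonal on both sides, pck1 and gclm above it and gnai2b and mcm5 below it.

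The genes named first are those with the 12 largest fold changes or the 6 smallest p-values in each direction, among genes with a mean of at least 1 CPM over the 6 libraries. Among the higher genes by p-value, gclm (ENSDARG00000018953), which encodes the regulatory subunit of the enzyme that starts glutathione synthesis, stood at 7.22, 9.25 and 7.30 CPM at 1 mM and at 52.7, 43.4 and 57.3 CPM at 10 mM. Its log2 difference was 2.69 with a standard error of 0.16 (adjusted p = 4.75e-06), and vehicle lay at 5.45, 5.02 and 6.42 CPM. All 10 mM libraries were therefore several times above all 6 others. The pentose phosphate enzyme pgd (ENSDARG00000015343) moved from 32.6, 44.9 and 53.4 to 330, 241 and 337 CPM (log2 2.80 ± 0.19 SE, adjusted p = 7.35e-06). Glutathione reductase, gsr, which recycles oxidised glutathione, moved from 61.8, 66.9 and 72.1 to 315, 236 and 277 CPM. The lipid hydrolase gene abhd4 and the glucuronosyltransferase gene ugt2b5 completed the group with log2 differences of 2.09 and 1.77, together with the forkhead factor foxo1a, described with glucose metabolism below. In each of these 6 genes the 10 mM libraries lay above the 1 mM libraries, as the rule required.

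The largest rises were partly in genes that were almost silent at 1 mM. The unnamed gene si:ch1073-190k2.1 was at 0, 0 and 0.0635 CPM at 1 mM and at 8.66, 1.67 and 1.3 CPM at 10 mM (adjusted p = 0.000536), and no fold is given because so few reads stand behind the lower value. The gene si:ch211-113g11.6 was at 0.106, 0.198 and 0 CPM at 1 mM and at 6.39, 0.673 and 1.4 CPM at 10 mM. Its log2 difference of 4.72 ± 1.03 SE likewise rests on few reads at 1 mM. The call was lost without 10 mM replicate 1 (adjusted p = 0.0888). The kinase gene nek2, which acts at the centrosome, rose from 0.159, 0.0566 and 0.0952 to 4.07, 1.08 and 2.69 CPM. A gene of the organic anion transporter family, slc22a6l, rose from 2.01, 2.91 and 3.71 to 89.3, 31.4 and 58.3 CPM, although counts of such near-identical family members may be split between copies. The rise was 4.23 on the log2 scale for ptges3l, a relative of the Hsp90 co-chaperone p23. It was 4.04 for chchd3b, which encodes a subunit of the complex that shapes mitochondrial cristae, with 6.06, 1.70 and 4.28 CPM at 1 mM and 83.9, 42.6 and 71.9 CPM at 10 mM. It was 3.96 for tmem276a. The remaining large rises, in pck1, sik1, fosab, btg2 and ddit4, belong to gene groups described below.

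On the lower side, the smallest p-value of all tested genes belonged to gnai2b (ENSDARG00000017294), an inhibitory G protein alpha subunit. It was at 64.0, 57.7 and 58.5 CPM at 1 mM and at 9.08, 9.69 and 8.83 CPM at 10 mM, a log2 difference of -2.71 ± 0.13 SE (adjusted p = 5.81e-07). Vehicle stood at 68.4, 65.8 and 81.4 CPM, so 10 mM lay alone at the bottom. The carotenoid-cleaving oxygenase relative bco2l fell from 18.5, 21.1 and 19.7 to 3.26, 4.28 and 2.47 CPM. The mitochondrial folate carrier slc25a32a fell by 2.09 on the log2 scale, the translation elongation factor eef1a1a by 1.89, the uncharacterised si:dkey-30c15.17 by 1.86 and sord, which oxidises sorbitol to fructose, by 1.68. In all of these the 3 libraries at 10 mM lay below every 1 mM library, as the rule required. By fold change the lower genes were headed by orc6 at -3.67 and included chek1 and the chromatin factor cdca7a, all described with DNA replication below. The others were kbtbd12 (-3.24), or42a4 (-2.89), the chemokine receptor cxcr4a (-2.82), the small GTPase rasl11b (-2.71), the adhesion receptor adgrf8 (-2.69), si:ch73-106k19.5 (-2.66), zgc:123278 (-2.64) and the nuclear receptor nr0b2a (-2.59).

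Gene lists of 35 pathways were then counted, with 1290 tested genes in all when each gene is taken once. Some genes stand in several of the lists, so the counts of different lists are not independent. The lists whose members passed the test most often in one direction were the DNA replication list on the lower side and the AP-1, Nrf2, tRNA synthetase and ribosome biogenesis lists on the higher side. Each list is described by its counts and its median. Lack of overlap between the doses, given for some genes below, held for 98.3% of all called genes and 33.7% of all tested genes. It is therefore no separate support for a call. Among all tested genes 9.39% were higher and 9.41% lower, with a median of -0.04. Because the lists and their members were chosen with earlier results of these data known, the shares are descriptions and not tests.

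**Figure D2:**
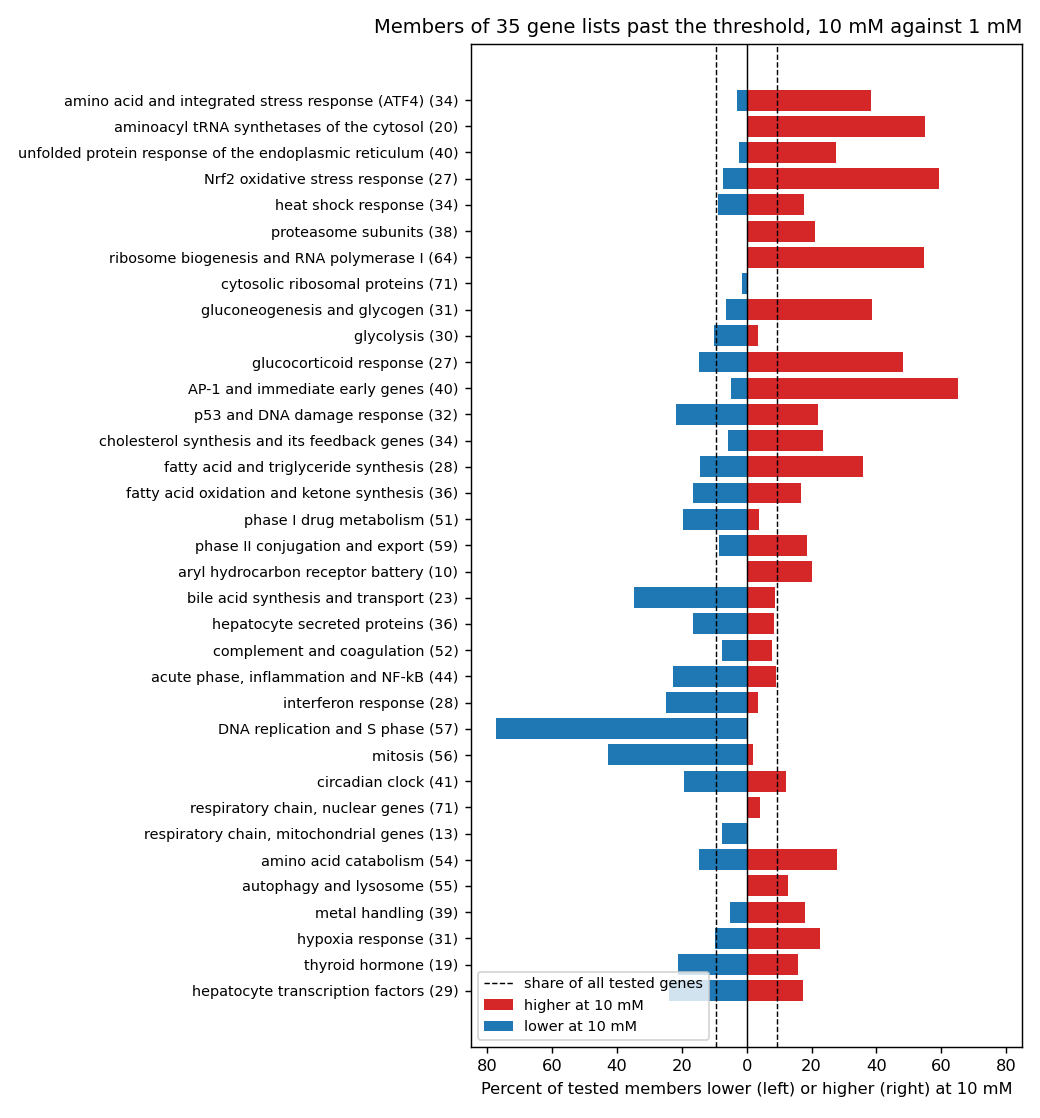
Percent of the tested members of each of 35 pathway lists that were higher (red) or lower (blue) at 10 mM than at 1 mM by edgeR's quasi-likelihood test. The dashed lines mark 9.39% and 9.41%, the shares of all tested genes, and the DNA replication list reaches 77.2% lower while the AP-1 list reaches 65.0% higher.

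The genes of DNA replication had the highest share called in one direction of the 35 lists. Of the 57 tested members, 44 were lower at 10 mM than at 1 mM (77.2%, against 9.41% of all tested genes) and 0 were higher. The median log2 difference was -1.55, and every one of the 57 differences was negative, from -3.67 to -0.14. The count was 35 to 44 when any 1 library was left out. The remaining 13 members did not pass the test.

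DNA replication begins when the origin recognition complex and the MCM helicase load onto DNA. The helicase subunit mcm5 (ENSDARG00000019507) stood at 16.6, 15.8 and 17.5 CPM at 1 mM and at 5.31, 4.58 and 5.32 CPM at 10 mM, and its log2 difference was -1.71 ± 0.15 SE (adjusted p = 3.19e-05). Vehicle stood at 6, 5.96 and 7.32 CPM, between the doses and nearer to 10 mM. For mcm5 the log2 difference from vehicle was 1.37 at 1 mM, which passed the test, and -0.34 at 10 mM, which did not. Its partner mcm7 showed the same order, with 13.9, 15.8 and 13.6 CPM in vehicle, 25.7, 24.2 and 28.1 at 1 mM and 11.7, 11.6 and 10.6 at 10 mM. The differences of the other 4 subunits were -2.14 for mcm6, -2.02 for mcm3, -1.99 for mcm2 and -1.96 for mcm4. All 6 subunits of the helicase ring were thus lower at the higher dose. The origin recognition subunit orc6 was at 1.43, 2.49 and 4.25 CPM at 1 mM and 0.148, 0.350 and 0.130 CPM at 10 mM (-3.67 ± 0.52 SE, adjusted p = 0.000499). The helicase partners cdc45 and gins2 fell by 2.1 and 2.46 on the log2 scale. Of the genes in this paragraph only mcm5, mcm7 and orc6 were named by the rule, and the others were named after their values were seen.

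Genes of the replication fork followed. The polymerase delta catalytic subunit pold1 was at 7.88, 7.64 and 7.11 CPM at 1 mM and at 1.73, 1.99 and 2.66 CPM at 10 mM (-1.83 ± 0.21 SE, adjusted p = 0.00015), with vehicle at 1.86, 2.37 and 1.99. The sliding clamp pcna, which holds the polymerase on DNA, stood at 34, 34.3 and 52.2 CPM at 1 mM, 13, 18.8 and 16.6 at 10 mM, and 12.2, 15 and 16 in vehicle. In both genes the 10 mM and vehicle ranges overlapped and all 1 mM libraries were above them. The primase-polymerase subunits pola1 and pola2 fell by 1.90 and 2.49 on the log2 scale. The flap endonuclease fen1 fell by 1.56 and the ligase lig1, which joins the lagging-strand fragments with it, by 1.74. For nucleotide supply, the ribonucleotide reductase subunit rrm1 moved from 20.7, 16.2 and 18.8 CPM at 1 mM to 7.18, 6.03 and 7.53 CPM at 10 mM, and the thymidylate synthase gene tyms fell by 1.48. Genes that copy chromatin along with DNA were also lower, among them the maintenance methyltransferase dnmt1 (-1.67), its partner uhrf1 (-2.1) and the histone chaperone subunits chaf1a (-1.23) and chaf1b (-2.31). The checkpoint kinase chek1 was at 3.60, 1.73 and 1.78 CPM at 1 mM and 0.197, 0.269 and 0.389 CPM at 10 mM. The chromatin factor cdca7a moved from 9.92, 8.72 and 8.44 to 0.987, 1.08 and 1.85 CPM. Apart from pold1, chek1 and cdca7a, the genes of this paragraph were named after their values were seen.

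**Figure D3:**
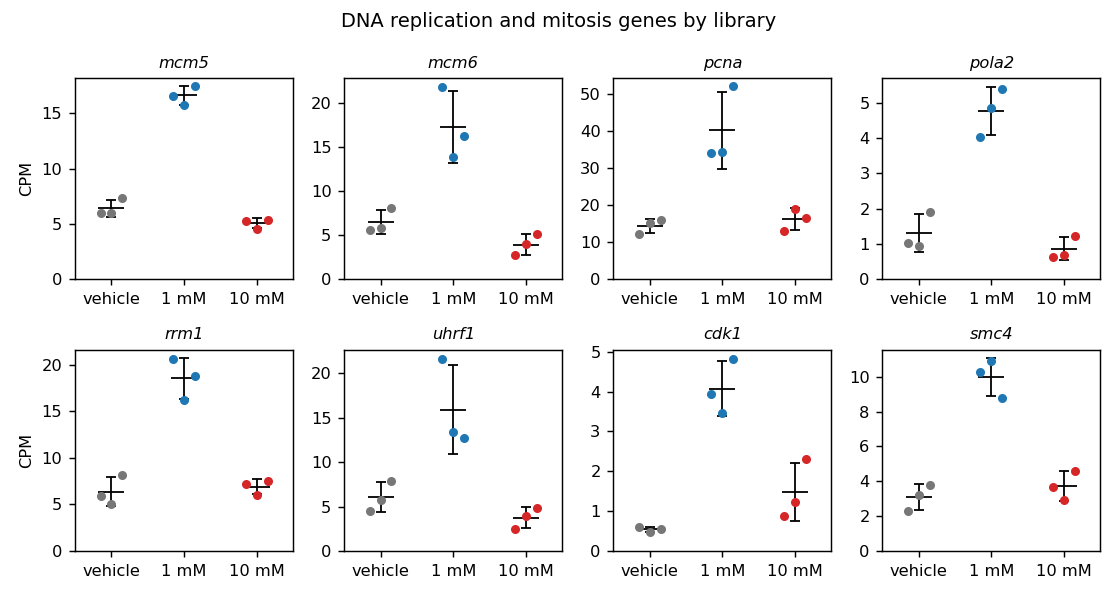
CPM per library (points) with mean and SD over 3 libraries (bars) for 8 cell cycle genes in vehicle, at 1 mM and at 10 mM. In each panel the 3 libraries at 1 mM lie above the 3 at 10 mM, as for mcm5 with 15.8 to 17.5 CPM against 4.58 to 5.32 CPM.

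Vehicle placed these differences on the dose scale. The 1 mM libraries lay above all 6 others for 48 of the 57 replication genes, against 4.57% of all tested genes, and below all 6 others for 0, against 2.61%. Any members with few reads could pass the count filter through the 1 mM libraries alone, which favours that order. The 10 mM libraries lay below all 6 others for 9 of them, against 10.8%. Against vehicle, 25 of the 57 were higher at 1 mM (background 0.889%), with a median log2 difference of 1.39. That count depended on single libraries, and it was 5, 6 and 12 without vehicle replicate 1, 2 and 3 and 13 without 1 mM replicate 2. It lay between 21 and 25 without any of the other 5. At 10 mM against vehicle 0 of the 57 passed the test (background 9.74% higher and 7.43% lower) and the median was -0.19, with at most 1 higher and 4 lower when a library was left out. The median of the list in each library, as a log2 ratio to the vehicle mean with 0.5 CPM added, was 1.09, 1.01 and 1.26 at 1 mM and -0.19, -0.30 and 0.10 at 10 mM. The 3 vehicle libraries lay at -0.23, -0.03 and 0.21, which overlapped with 10 mM and not with 1 mM.

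Mitosis genes, which act after replication, showed the same order less uniformly. Of 56 tested, 24 were lower at 10 mM (42.9%) and 1 was higher, with a median of -1.18. Leaving out 1 mM replicate 3 gave 14 lower members, and leaving out 10 mM replicate 1 or 2 gave 12 or 11. The kinetochore gene kntc1 was at 5.37, 6.23 and 4.73 CPM at 1 mM and at 1.38, 1.32 and 1.66 CPM at 10 mM (-1.91 ± 0.26 SE, adjusted p = 0.00036). The condensin subunit smc4 fell from 10.3, 10.9 and 8.79 to 3.65, 2.91 and 4.61 CPM, and the proliferation marker mki67 from 10.1, 7.81 and 9.68 to 3.90, 3.45 and 3.76 CPM. The mitotic kinase cdk1 stood at 0.602, 0.468 and 0.548 CPM in vehicle, 3.94, 3.45 and 4.82 at 1 mM and 0.888, 1.24 and 2.3 at 10 mM, so its 3 groups did not overlap and 10 mM lay between the others. The member that rose was nek2, described above. Over the list, 1 mM lay above all 6 other libraries in 36 of 56 genes, against 4.57% of all tested genes. The 56 genes together summed to only 45.4 to 54.5 CPM in vehicle, 132 to 176 at 1 mM and 58.3 to 90.3 at 10 mM. Members with few reads could pass the count filter through the 1 mM libraries alone, which favours that order. The counts and medians of this list are limited by that. Against vehicle 19 were higher at 1 mM (background 0.889%), with a median of 1.79. That count was 5, 5 and 8 without vehicle replicate 1, 2 and 3, 11 without 1 mM replicate 2 and 15 to 17 without any of the other 5. At 10 mM 4 were higher than in vehicle (7.14%, against 9.74% of all tested genes), with a median of 0.57, and 1 to 6 when a library was left out. The genes mki67 and cdk1 were named after their values were seen.

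**Figure D4:**
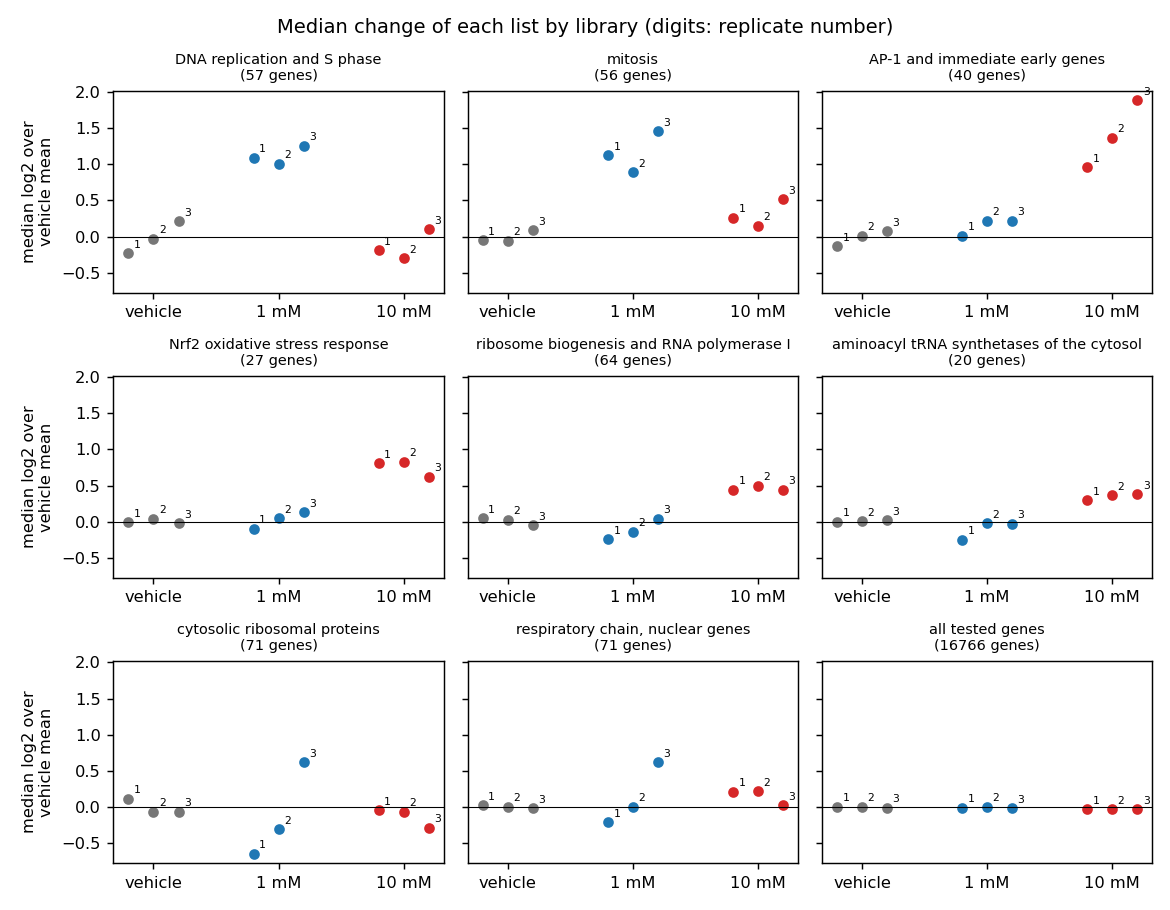
Median over the tested members of 9 gene lists in each library, as the log2 ratio of CPM to the vehicle mean with 0.5 CPM added. For DNA replication the 1 mM libraries lie at 1.01 to 1.26 and the other 6 at -0.30 to 0.21, while for AP-1 genes the 10 mM libraries lie at 0.96 to 1.89.

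Genes of the Nrf2 oxidative stress list were mostly higher at 10 mM. Of 27 tested members 16 were higher (59.3%) and 2 lower, with a median log2 difference of 0.69, and the higher count was 14 to 17 when a library was left out. Glutathione synthesis was represented by gclm, described above, by its catalytic partner gclc at 20.1, 24.5 and 22.2 CPM at 1 mM and 40.6, 31.4 and 40.2 CPM at 10 mM, and by glutathione synthetase, gss, with a log2 difference of 1.67. The doses did not overlap in any of these 3 genes, which the rule required of gclm. NADPH comes from the pentose phosphate pathway, whose genes pgd, tktb and taldo1 were higher by 2.80, 1.03 and 0.69 on the log2 scale. The identifier deposited as tktb (ENSDARG00000006019) is named TKTL2, a transketolase-like gene, in the annotation, so which transketolase copy it stands for is uncertain. The peroxide-removing prdx1 rose from 22.1, 28.2 and 54.4 to 170, 119 and 175 CPM, and the thioredoxin reductase gene txnrd3 from 287, 346 and 344 to 594, 573 and 650 CPM. The oxidoreductase gene aifm4 was higher by 3.53 on the log2 scale, from 1.16, 1.92 and 2.41 to 21.4, 15.3 and 26.4 CPM. Genes of the regulators rose too, the inhibitor keap1b by 1.06 and the nfe2l2b form of Nrf2 by 2.75. The bile and conjugate exporter abcc2, already at 857 to 1004 CPM at 1 mM, reached 1702 to 1920 CPM. Apart from gclm and pgd, the members in this paragraph were named after their values were seen.

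The 2 members that fell were hmox1a, which encodes the heme-degrading enzyme heme oxygenase, and the carbonyl reductase cbr1. Heme oxygenase stood at 68.7, 74.2 and 35.8 CPM at 1 mM and at 19.3, 19.1 and 11 CPM at 10 mM (-1.85 ± 0.28 SE, adjusted p = 0.000703), below vehicle at 47.2, 40.6 and 30.7. It is a classic Nrf2 target in mammals, and here it fell where gclm rose. For cbr1, named after its values were seen, the difference was -1.09.

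Genes of the ATF4 list were higher at 10 mM in 13 of 34 tested (38.2%) and lower in 1, with a median of 0.41. With a library left out, 9 to 16 were higher. The arginine and lysine importer slc7a3a rose from 9.60, 23.9 and 34.1 to 338, 152 and 364 CPM (3.66 ± 0.42 SE, adjusted p = 0.000146). The mTOR brake ddit4 rose from 2.86, 4.19 and 7.71 to 36.7, 56.2 and 104 CPM, and the transcription factor cebpb from 83.2, 82.2 and 104 to 188, 198 and 256 CPM. In all 3 genes every 10 mM library was above every 1 mM library, which the rule required of ddit4. The asparagine synthetase gene asns was higher by 1.21, the glutamine transporter slc38a2 by 1.17, the leucine sensor sesn2 by 1.23 and ppp1r15b, whose protein directs the dephosphorylation of eIF2, by 2.54. The lower member was nupr1a, a stress-induced chromatin protein, at 42.6, 33.6 and 52.2 CPM at 1 mM and 14.8, 19.3 and 17.2 CPM at 10 mM. The genes asns, slc38a2, sesn2 and ppp1r15b were named after their values were seen. A further lower member passed the test without vehicle replicate 2 or 10 mM replicate 1.

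Cytosolic tRNA synthetases, many of which ATF4 drives in mammals, were higher in 11 of 20 genes (55.0%) and lower in 0, with a median of 0.50 and a range of 9 to 14 when a library was left out. The methionine enzyme mars1 was at 10.7, 13.9 and 10.5 CPM at 1 mM and 34.6, 29.4 and 32.6 CPM at 10 mM. The glutamine enzyme qars1 was higher by 1.06 and the threonine enzyme tars1 by 0.83. The 1 mM libraries gave list medians of -0.25, -0.02 and -0.03 against the vehicle mean and the 10 mM libraries 0.30, 0.37 and 0.38.

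Counts in the protein folding and degradation lists moved with single libraries. Of 40 tested genes of the unfolded protein response of the endoplasmic reticulum 11 were higher (27.5%) and 1 lower, with a median of 0.34. Most single libraries moved the higher count, to 7, 6 and 6 without vehicle replicate 1, 2 and 3, 4 and 2 without 1 mM replicate 1 and 2, and 6, 3 and 4 without 10 mM replicate 1, 2 and 3. The lower member was lost without any 1 of these libraries other than the 3 of vehicle. The sensor atf6 moved from 43.6, 42.4 and 40.3 to 62.5, 63.8 and 72.3 CPM (0.65 ± 0.11 SE, adjusted p = 0.00189), and the co-chaperone dnajc3a was higher by 0.72. A further co-chaperone, dnajb11, was higher by 0.89, and its call was lost without 1 mM replicate 2 (adjusted p = 0.0515).

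Among 34 heat shock genes 6 were higher (17.6%) and 3 lower (8.82%), with a median of 0.34. Without 1 mM replicate 3 the higher count was 16, and the lower count was 1 without 10 mM replicate 1 or 2. The members that rose included the mitochondrial chaperones hspd1, at 33.2, 45.0 and 45.1 CPM at 1 mM and 105, 96.0 and 102 CPM at 10 mM, and hspa9, higher by 0.89. The Hsp110 family gene hspa4a rose from 4.13, 7.84 and 8.09 to 29.3, 30.5 and 33.2 CPM. Proteasome subunits were higher in 8 of 38 (21.1%) and lower in 0, with a median of 0.24. That count was 21 without 1 mM replicate 3 and 5 without 1 mM replicate 1 or 10 mM replicate 1. The regulatory subunits psmd1 and psmd11b were higher by 0.55 and 0.90. All of these genes were named by the rule.

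The AP-1 and immediate early genes were higher at 10 mM in 26 of 40 (65.0%) and lower in 2, with a median of 1.26. With a library left out, 19 to 26 were higher, and the lower count was 1 without 10 mM replicate 2. The maff gene, whose product is a small Maf partner of other leucine zipper factors, was at 24.4, 19.8 and 22.1 CPM at 1 mM and 77.1, 62.9 and 80.8 CPM at 10 mM (1.74 ± 0.14 SE, adjusted p = 1.91e-05). The Fos family member fosl1a rose from 2.06, 2.29 and 2.09 to 13.3, 14.9 and 32.5 CPM. For fosab, the zebrafish c-Fos, the values were 1.80, 4.73 and 1.52 CPM at 1 mM and 6.22, 76.1 and 106 CPM at 10 mM, so the size of its rise differed widely between the 3 libraries at 10 mM. The zinc finger factor egr1 showed the same order among them, with 72.1, 227 and 385 CPM, above 25.8, 44.2 and 16.1 CPM at 1 mM. So did the antiproliferative gene btg2, with 12.6, 72.7 and 142 CPM above 3.31, 7.50 and 3.71. In these 3 genes the 10 mM replicate 1 library was the lowest at that dose and replicate 3 the highest. The doses did not overlap, which the rule required of fosab and btg2. The gene egr1 was named after its values were seen.

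The Jun family members jun and junba were higher by 1.3 and 2.59, the Myc gene myca by 2.52, the growth arrest gene gadd45aa by 1.95 and the stress factor atf3 by 3.42. A lower member was mafba, a large Maf factor of macrophages and other lineages, at 37.9, 47.0 and 35.9 CPM at 1 mM and 21.4, 24.1 and 20.6 CPM at 10 mM. The medians of the list in the 10 mM libraries were 0.96, 1.37 and 1.89 above the vehicle mean, and those at 1 mM 0.01, 0.22 and 0.22. The genes jun, junba, atf3 and mafba were named after their values were seen.

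Genes of ribosome biogenesis were higher at 10 mM in 35 of 64 (54.7%) and lower in 0, with a median of 0.61, and 31 to 45 were higher when a library was left out. The assembly GTPase gnl2 was at 15.6, 15.4 and 18.9 CPM at 1 mM and 35.8, 35.2 and 31.7 CPM at 10 mM (1.04 ± 0.13 SE, adjusted p = 0.000198). Vehicle stood at 22.8, 20.2 and 21.4 CPM, between the doses. The helicase ddx27 showed the same order, with 8.44, 9.76 and 7.17 CPM at 1 mM, 11.8, 13.9 and 11.6 in vehicle and 17.2, 19.1 and 18.4 at 10 mM. For both genes the 3 groups did not overlap. The RNA polymerase I factor RRN3, the processome component UTP20, the rRNA methyltransferase nop2 and the nucleolar methyltransferase fibrillarin, fbl, were higher by 1.02, 1.28, 1.36 and 0.76. These 4 genes were named after their values were seen. The 10 mM libraries lay above all 6 others for 42 of the 64, against 12.3% of all tested genes.

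Calls among the cytosolic ribosomal proteins depended on the third replicates. Of 71 tested, 0 were higher and 1 was lower (1.41%), with a median of -0.11. The lower member, rps8b, lost its call without 1 mM replicate 2, 10 mM replicate 1 or 10 mM replicate 3. Without 1 mM replicate 3, 9 members were higher, and without the third replicates of both doses 30 were higher and 1 lower, beside 46 of 64 ribosome biogenesis genes higher in that setting. The list median of that library was 0.62 above the vehicle mean, whereas 1 mM replicate 1 and 2 were at -0.65 and -0.31 and the 10 mM libraries at -0.05, -0.07 and -0.29. The 1 mM replicate 1 and 2 libraries thus lay below all 3 libraries at 10 mM, and replicate 3 above them. The nuclear genes of the respiratory chain followed the same library, with 3 of 71 higher (4.23%) and 0 lower and a median of -0.03. Those higher numbered 16 without 1 mM replicate 3 and 25 without the third replicates of both doses. Only 1 was higher without 1 mM replicate 1, 1 mM replicate 2 or 10 mM replicate 1. Their library medians were -0.21, 0.00 and 0.62 at 1 mM and 0.21, 0.22 and 0.02 at 10 mM. The cytochrome oxidase subunit cox8a kept its call, with 8.81, 12.2 and 17.7 CPM at 1 mM and 24.4, 22.3 and 22.7 CPM at 10 mM. Of the 13 genes encoded in the mitochondrion 1 was lower (7.69%) and 0 higher, with a median of -0.27. The lower one was lost without any 1 library other than 1 mM replicate 1 or 3.

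Genes of gluconeogenesis and glycogen were higher at 10 mM in 12 of 31 (38.7%) and lower in 2, with a median of 0.22 and 11 to 13 higher when a library was left out. Phosphoenolpyruvate carboxykinase, pck1 (ENSDARG00000013522), which commits oxaloacetate to glucose synthesis, was at 105, 379 and 538 CPM at 1 mM and at 6414, 4817 and 8279 CPM at 10 mM (4.25 ± 0.52 SE, adjusted p = 0.000196). Vehicle stood at 165, 280 and 398 CPM, so 1 mM and vehicle overlapped and 10 mM stood far above both. The forkhead factor foxo1a, which binds the pck1 and g6pc promoters in mammals when insulin is low, rose from 48.9, 59.4 and 49.8 to 254, 189 and 224 CPM. The coactivator PPARGC1A rose from 3.49, 3.57 and 1.46 to 24.7, 16.7 and 23.9 CPM. The kinase sik1, which restrains this programme through CREB coactivators in mammals, rose from 9.26, 15.5 and 26.1 to 137, 229 and 678 CPM. Glucose-6-phosphatase, g6pc1a.2, releases free glucose and was higher by 1.3, fructose bisphosphatase, fbp1a, by 0.73 and the aspartate aminotransferase got1 by 1.13. The insulin-regulated binding proteins igfbp1a and igfbp1b reached 1553 to 2412 and 1036 to 1603 CPM at 10 mM, above 555 to 963 and 262 to 531 CPM at 1 mM. The members that fell were pygb, a glycogen phosphorylase, by 1.13 and ppp1r3ca, a glycogen-targeting phosphatase subunit, by 1.17. Outside the rule, g6pc1a.2, fbp1a, igfbp1a, pygb and ppp1r3ca were named after their values were seen.

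Glycolysis held 30 tested genes, of which 1 was higher (3.33%) and 3 were lower (10%), with a median of 0.04. The lower share was near the 9.41% of all tested genes and the higher share below their 9.39%. Without 1 mM replicate 3 there were 3 higher members, and without 10 mM replicate 2 there were 2. The phosphofructokinase gene pfklb moved from 33.8, 28.8 and 23.7 to 12.4, 18.9 and 15.2 CPM, and the fructose transporter slc2a5 from 12.7, 14.8 and 8.66 to 1.83, 3.66 and 0.519 CPM. Both were lower without overlap of the doses. The member that rose was pfkfb4b, by 1.13, an enzyme that sets the level of fructose 2,6-bisphosphate.

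**Figure D5:**
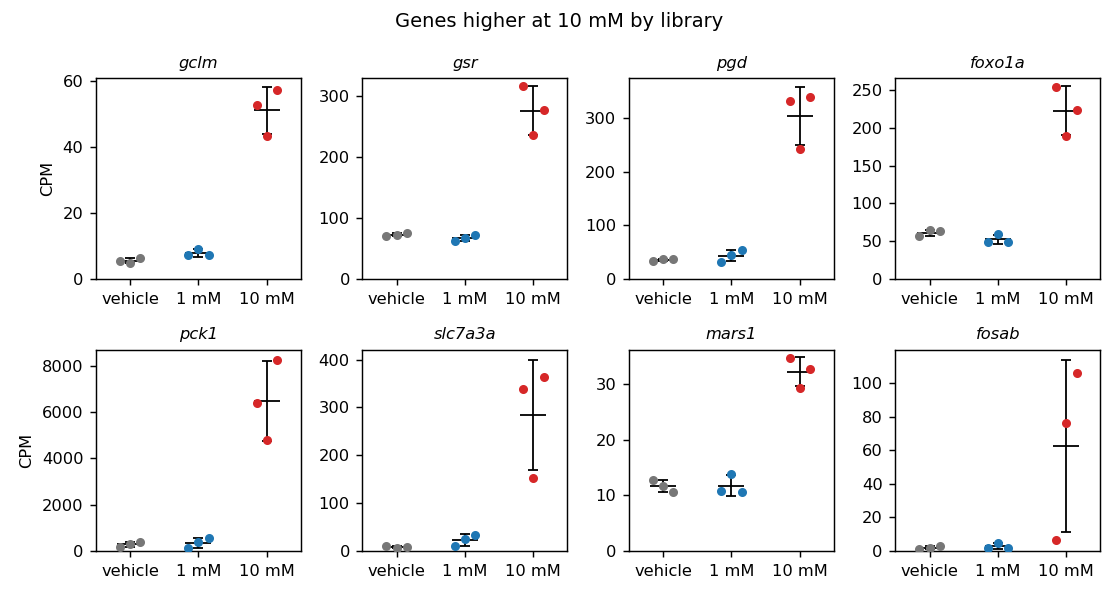
CPM per library (points) with mean and SD over 3 libraries (bars) for 8 genes that were higher at 10 mM than at 1 mM. The 10 mM libraries lie above the 1 mM libraries in every panel, for pck1 at 4817 to 8279 against 105 to 538 CPM, and for fosab they spread from 6.22 to 106 CPM. The rule required that the doses not overlap for all of these genes except slc7a3a and mars1.

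Genes of the glucocorticoid response list were higher in 13 of 27 (48.1%) and lower in 4, with a median of 0.66. Leaving out a library gave 9 to 16 higher. The lower count was 2 without 1 mM replicate 1, 10 mM replicate 1 or 10 mM replicate 2 and 1 without 1 mM replicate 2 or 10 mM replicate 3. The zinc finger gene ZBTB16 rose from 15.1, 18.1 and 13.6 to 71.3, 53.6 and 57.3 CPM (1.96 ± 0.16 SE, adjusted p = 1.91e-05), and the serum and glucocorticoid regulated kinase sgk1 from 190, 250 and 320 to 1064, 1032 and 1588 CPM. In both genes the doses did not overlap and 1 mM lay within the range of vehicle. A lower member was hsd11b2, which inactivates cortisol, at 19.0, 27.8 and 33.0 CPM at 1 mM and 14.7, 13.3 and 15.4 CPM at 10 mM. It was named after its values were seen.

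The p53 list did not lean to one side, with 7 of 32 higher (21.9%) and 7 lower (21.9%) and a median of -0.04. Both shares lay above the 9.39% and 9.41% of all tested genes. The p53-induced tp53inp1 rose from 52.4, 90 and 72.2 to 189, 130 and 220 CPM. The leucine sensor relative sesn3 fell from 34.3, 33.2 and 31.3 to 10.9, 12.6 and 10.1 CPM (-1.56 ± 0.13 SE, adjusted p = 2.12e-05), whereas its paralogue sesn2 was higher. The DNA damage binding gene ddb2 and the kinase plk2b, both named after their values were seen, fell by 0.63 and 0.86 on the log2 scale.

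Lipid genes changed in both directions. Among the 28 fatty acid and triglyceride synthesis genes 10 were higher (35.7%) and 4 lower, with a median of 0.39 and 8 to 13 higher when a library was left out. The gene deposited as ccdc57, whose Ensembl identifier (ENSDARG00000087657) is named FASN in the annotation and matches fatty acid synthase, was at 35.4, 43.7 and 29.6 CPM at 1 mM and 117, 89.0 and 126 CPM at 10 mM. Acetyl-CoA carboxylase, acaca, which makes its substrate, moved from 20.2, 22.2 and 14.6 to 41.7, 34.1 and 43.5 CPM. The lipid droplet protein gene fitm2 was higher by 1.70 and the phosphatidate phosphatase lpin1a by 1.5. In these 4 genes the doses did not overlap. Among the lower members, the carbohydrate response factor mlxipl fell by 1.33, its target mid1ip1b by 1.11 and dgat1a, which adds the last acyl chain to triglyceride, by 1.23. The genes acaca, lpin1a, mlxipl and dgat1a were named after their values were seen.

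Fatty acid oxidation split evenly, with 6 of 36 higher (16.7%) and 6 lower (16.7%) and a median of -0.18. Only 3 were lower without 1 mM replicate 2 or 10 mM replicate 3. The receptors pparaa and pparab, which drive these genes in mammals, were higher by 0.88 and 1.59, and the entry enzyme cpt1ab moved from 140, 141 and 161 to 290, 194 and 260 CPM. The auxiliary enzyme decr1 fell by 0.81. Of 34 cholesterol genes 8 were higher (23.5%) and 2 lower (5.88%), with a median of -0.02. Without 1 mM replicate 2 there were 4 higher, and without 10 mM replicate 3 there were 5. Those lower numbered 6 without 1 mM replicate 3 and 1 without vehicle replicate 2, 1 mM replicate 1, 10 mM replicate 1 or 10 mM replicate 3. The exporter abca1a and the lysosomal cholesterol carrier npc1 were higher by 1.09 and 1.01. The first enzyme acat2 moved from 15.6, 17.6 and 27.9 to 67.7, 61.0 and 63.1 CPM, and the sterol reductase tm7sf2 from 52.6, 52.4 and 49.6 to 17.8, 19.9 and 11.2 CPM. Genes of the same synthetic route therefore moved apart. The genes cpt1ab and abca1a were named after their values were seen.

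Genes of phase I drug metabolism, the oxidising step, were lower in 10 of 51 (19.6%) and higher in 2, with a median of -0.24. Leaving out a library gave 7 to 12 lower. The higher count was 1 without any 1 of the vehicle libraries, 1 mM replicate 2, 10 mM replicate 1 or 10 mM replicate 3. The cytochromes cyp2ad2, cyp2aa1 and cyp2p10 fell by 0.83, 0.96 and 1.23, the first of them from 1070, 1250 and 1227 to 646, 805 and 546 CPM. Xanthine dehydrogenase, XDH, fell by 0.90. The electron donor of the cytochromes, porb, went the other way, from 350, 408 and 399 to 944, 853 and 922 CPM (1.23 ± 0.13 SE, adjusted p = 9.65e-05). Phase II and export genes were higher in 11 of 59 (18.6%) and lower in 5, with a median of -0.07 and 9 to 15 higher when a library was left out. The glucuronosyltransferases did not share a direction. The gene ugt2b5 was at 15.1, 14 and 13.6 CPM at 1 mM and 49.1, 46.3 and 50.8 CPM at 10 mM, and ugt2b3 was higher by 1.67, whereas ugt1b7 fell from 17.9, 19.8 and 19.6 to 9.82, 7.29 and 7.69 CPM. The methyltransferase comtb fell by 1.31. Reads of near-identical cyp2 and ugt copies may be split between them, so single members of these families are uncertain. Of the 10 genes of the aryl hydrocarbon receptor battery 2 were higher (20%) and 0 lower, with a median of 0.08. The higher count was 1 without any 1 library other than 1 mM replicate 1 or 3, and 1 member was lower without 1 mM replicate 3 or 10 mM replicate 2. The gene tiparp, a feedback repressor of that receptor, kept its call and rose by 1.71. In this paragraph cyp2ad2, cyp2p10 and ugt2b3 were named after their values were seen.

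Bile acid synthesis and transport was lower in 8 of 23 (34.8%) and higher in 2, with a median of -0.08. Leaving out a library gave 6 to 8 lower, and the higher count was 1 without any 1 library other than 1 mM replicate 3 or 10 mM replicate 1 and 0 without the latter. The synthetic enzyme hsd3b7 was at 144, 139 and 159 CPM at 1 mM and 52.1, 61.3 and 46.6 CPM at 10 mM (-1.47 ± 0.13 SE, adjusted p = 3.69e-05). The bile acid receptor nr1h4, known as FXR, fell from 47.2, 48.5 and 44.9 to 27.7, 29.9 and 26.2 CPM. Its target nr0b2a, the repressor known as SHP, fell from 5.71, 6.23 and 7.68 to 0.765, 1.08 and 1.43 CPM, with vehicle between the doses at 3.40, 4.21 and 2.84. The 3 genes fell without overlap of the doses, which the rule required of nr0b2a. The hydroxylases cyp27a1.4 and CYP7B1, named after their values were seen, fell by 1.16 and 1.04.

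The liver's secreted proteins gave small counts. Among 36 hepatocyte secreted proteins 3 were higher (8.33%) and 6 lower (16.7%), with a median of -0.14. Among all tested genes 9.39% were higher and 9.41% lower. Those lower numbered 3 without 1 mM replicate 2 or 10 mM replicate 1, and leaving out 10 mM replicate 3 left 2. The higher count was 1 without 10 mM replicate 1 and 7 without the third replicates of both doses. Vitronectin, vtna, fell from 318, 325 and 305 to 182, 191 and 150 CPM, and the growth factor igf2a from 170, 160 and 181 to 87.4, 104 and 106 CPM. The apolipoprotein gene apoa4a, which enterocytes also express, rose from 3.41, 3.11 and 4.44 to 15.5, 18.1 and 19.1 CPM. Of the 9 enterocyte markers, 3 were higher at 10 mM, apoa4a among them, and only 1 was higher without vehicle replicate 2, 1 mM replicate 1 or any 1 of the 10 mM libraries. Their summed level was 2700 to 4317 CPM at 1 mM and 2682 to 3416 CPM at 10 mM, and the part of these cells in the result was not tested.

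Complement and coagulation was balanced, with 4 of 52 higher (7.69%) and 4 lower (7.69%) and a median of -0.13. Both shares lay below those of all tested genes. Only 2 were higher without vehicle replicate 2, 1 mM replicate 1, 10 mM replicate 1 or 10 mM replicate 3. Those lower numbered 2 without vehicle replicate 3 and 1 without 1 mM replicate 2, 10 mM replicate 2 or 10 mM replicate 3. The terminal component c7b (ENSDARG00000057121) climbed with dose, from 10.6, 6.45 and 5.45 CPM in vehicle to 37.5, 55.7 and 43.2 at 1 mM and 415, 215 and 347 at 10 mM. Its log2 difference was 2.84 ± 0.28 SE between the doses (adjusted p = 5.76e-05) and 2.60 between 1 mM and vehicle (adjusted p = 0.0019), and the 3 groups did not overlap. The gene deposited as c6, which the annotation names c6.2, was higher by 0.66 and the factor H relative cfhl1 lower by 0.89.

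Genes of the acute phase, inflammation and NF-kB were lower in 10 of 44 (22.7%) and higher in 4, with a median of -0.04. Only 6 were lower without 1 mM replicate 2 or 10 mM replicate 3, and the higher count was 9 without 1 mM replicate 3 and 2 without 10 mM replicate 3. The antimicrobial peptide gene leap2 fell from 42.1, 27.8 and 33.7 to 10.1, 13.6 and 6.65 CPM, and cxcr4a from 1.59, 2.07 and 1.87 to 0.148, 0.431 and 0.195 CPM. The hepatocyte factor cebpa rose from 19.9, 23.4 and 31.5 to 44.7, 52.9 and 72.6 CPM. Each of these changes separated the doses without overlap, which the rule required of cxcr4a and which held for 98.3% of all called genes. Interferon response genes were lower in 7 of 28 (25.0%) and higher in 1, with a median of -0.66 and 5 to 9 lower when a library was left out. The interferon transducers irf9, stat1a and stat2 fell by 0.95, 0.90 and 0.58, the last of them from 44.6, 45.3 and 40.7 to 27.6, 30 and 30 CPM. The factor irf1b fell by 1.49. The member that rose was irf7, from 5.03, 4.33 and 5.68 to 15.1, 10.5 and 13.8 CPM. The summed level of the 14 macrophage markers was 81.5 to 89.3 CPM at 1 mM and 88.3 to 99.7 CPM at 10 mM, and the part of these cells in the lower counts was not tested. The genes stat1a and stat2 were named after their values were seen.

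Amino acid catabolism was higher in 15 of 54 (27.8%) and lower in 8, with a median of 0.15. Without 10 mM replicate 1 only 7 were higher, and the lower count was 4 without 1 mM replicate 2 or 10 mM replicate 1 and 5 without 10 mM replicate 3. Proline dehydrogenase, prodha, rose from 12.1, 17.3 and 14.1 to 76.8, 54.8 and 82.6 CPM (2.3 ± 0.19 SE, adjusted p = 1.91e-05), with vehicle at 24.0, 28.7 and 21.0 between the doses. Ornithine aminotransferase, oat, showed the same order, with 150, 160 and 107 CPM at 1 mM, 239, 259 and 220 in vehicle and 308, 290 and 344 at 10 mM. The 3 groups did not overlap in either gene. The glutaminase gls2b was higher by 1.31 and the cysteine-forming enzyme cth by 0.79, whereas bckdk, the kinase that switches off branched-chain amino acid breakdown, fell from 48.4, 56.8 and 56.0 to 19.7, 29.0 and 21.9 CPM. Outside the rule, oat, gls2b and cth were named after their values were seen.

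Autophagy and lysosome genes were higher in 7 of 55 (12.7%) and lower in 0, with a median of 0.11. The higher share was near the 9.39% of all tested genes. Those higher numbered 13 without 1 mM replicate 3 and 4 without any 1 of the 10 mM libraries, and 2 members were lower without 1 mM replicate 1. The initiating kinase ulk1a rose from 12.2, 12.4 and 12.1 to 47.1, 20.6 and 33.5 CPM. Metal handling was higher in 7 of 39 (17.9%) and lower in 2, with a median of 0.16. Those higher numbered 4 without 1 mM replicate 2 and 3 without 10 mM replicate 1 or 3. The transferrin receptor tfr1b, which imports iron, rose from 250, 480 and 298 to 1114, 1209 and 1370 CPM, and the zinc exporter slc30a1a from 16.4, 13.5 and 14.4 to 26.9, 27.8 and 32.5 CPM. Hypoxia genes were higher in 7 of 31 (22.6%) and lower in 3, with a median of 0.27. Members of the list moved apart, with hif1al, a hypoxia inducible factor alpha relative, rising from 40.3, 97.5 and 93.4 to 367, 290 and 380 CPM and ndrg1a, a hypoxia target in mammals, falling from 169, 155 and 147 to 45.3, 58.1 and 30.4 CPM.

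Thyroid hormone genes were higher in 3 of 19 (15.8%) and lower in 4, with a median of -0.32. The lower count was 7 without 1 mM replicate 3, 2 without 1 mM replicate 1, 1 mM replicate 2 or 10 mM replicate 3, and 1 without 10 mM replicate 1 or 2. The 2 deiodinases with calls moved in opposite directions. The activating enzyme dio2 fell from 8.09, 6.65 and 10.1 to 3.04, 2.1 and 3.18 CPM. The inactivating enzyme dio3b was at 3.31, 20.7 and 32.9 CPM at 1 mM, a wide spread, and at 150, 115 and 159 CPM at 10 mM (2.90 ± 0.53 SE, adjusted p = 0.00248), with vehicle at 5.81, 5.80 and 5.23. The hormone transporter slc16a10 was higher by 1.13 and tg, which encodes the hormone precursor thyroglobulin, by 3.28. The gene dio3b was named after its values were seen.

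Transcription factors that maintain hepatocytes were higher in 5 of 29 (17.2%) and lower in 7 (24.1%), with a median of -0.03 and 5 to 10 lower when a library was left out. The nuclear receptor esrra, a partner of PPARGC1A, rose from 5.34, 5.41 and 3.84 to 11.6, 13.9 and 13.7 CPM. The factors foxa2 and prox1a, which specify and maintain liver cells and were named after their values were seen, fell by 0.94 and 0.81. Clock genes were higher in 5 of 41 (12.2%) and lower in 8 (19.5%), with a median of -0.02. Among all tested genes 9.39% were higher, near the share of this list, and 9.41% lower. The lower count was 13 without 1 mM replicate 3 and 5 without 10 mM replicate 3. The activators clocka and bmal1a fell by 1.43 and 0.76, and the repressor bhlhe40 fell from 139, 95.6 and 97.1 to 62.0, 63.5 and 42.9 CPM. The repressor per2 was higher by 0.73, with 17.8, 20.8 and 15.2 CPM at 1 mM and 30.6, 31.0 and 27.8 CPM at 10 mM. The labels give no time of day. The genes clocka, bmal1a and per2 were named after their values were seen.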

How the data were processed

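PolyA RNA of microdissected larval livers was sequenced in 9 libraries, 3 per group. The authors deposited 1 table of read counts per Ensembl gene, and the submitters' processing notes name HISAT2, featureCounts and the GRCz11 build with no versions. Whether the counting used strand or split multiply mapped reads is not given in the sources used here. Counts of 1 to 20 were even in 75.2 to 82.9% of cases, so most fragments appear to count as 2 reads.

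Genes were kept by edgeR's filterByExpr (minimum count 10, minimum total 15), scaled by TMM and tested with edgeR 4.0.16 in R 4.3.3, in 1 quasi-likelihood fit of all 9 libraries with a mean per group. P-values were adjusted by the Benjamini-Hochberg method over all 16766 genes and called at 0.05. Standard errors are the log2 difference over the root of the F statistic, and CPM use TMM library sizes. Named genes were, in each direction, the 12 largest changes and 6 smallest p-values among called genes that had a symbol, averaged 1 CPM or more in the 6 dose libraries and did not overlap, plus the 3 smallest p-values in each list. The members and lists were chosen with earlier results of these data known. Of the list members 1658 of 1756 matched 1 gene. Fits were tested on simulated data. DESeq2 1.42.0, other filters and left-out libraries served as alternatives. Some items are not reported here.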

Additional observations from a re-analysis of the deposited data

How the results depend on the processing

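The 1575 higher and 1578 lower genes became 1643 and 1493 with DESeq2 size factors, 1882 and 1843 by DESeq2's own test, 1650 and 1596 without a filter, 1251 and 1285 with at least 5 CPM in 3 libraries, 1168 and 1088 without the vehicle libraries, and 1573 and 1588 without mitochondrial and the 20 most abundant genes. At a log2 difference of at least 1 in size, 622 and 743 remained by construction. Leaving out 1 library gave 1014 to 2067 higher and 949 to 1835 lower, lowest without 10 mM replicate 1 and highest without 1 mM replicate 3, and the cause was not tested. Without 10 mM replicate 1, 997 of the higher and 910 of the lower genes were shared with the full fit. With the replicate number as a block the counts were 1320 and 1306. Deviations from the group means had correlations of -0.145, -0.0347 and -0.191 between same-numbered 1 mM and 10 mM libraries, no sign of pairing between the doses. For vehicle and 10 mM, same-numbered libraries gave 0.126, 0.0457 and 0.119, and differently numbered ones -0.116 to -0.00711. Same-numbered vehicle and 1 mM libraries gave -0.109, 0.0741 and -0.0524. The labels do not say what the numbers mark. Chosen after seeing the data, leaving out the third replicates of both doses gave 1889 and 1705, and halving the counts 1603 and 1637. No named gene that passed the test in the full fit changed sign under these settings. Named genes that did not pass it were not checked for sign. The standard errors include the spread between libraries, 3 per dose, and promoter motifs were not run.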

Other observations

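A few families outside the pathway lists were looked at after their values were seen, and they are given without a test of the family. Their counts stand beside 9.39% higher and 9.41% lower among all tested genes. Of 26 genes of Fanconi, recombination and mismatch repair, which mend DNA during replication, 13 were lower at 10 mM than at 1 mM and 1 higher, with a median log2 difference of -1.44. Leaving out 1 mM replicate 1, 10 mM replicate 1 or 10 mM replicate 2 gave 8 lower, and the other libraries gave 9 to 12. The recombination gene rad54l was at 2.94, 2.55 and 3.36 CPM at 1 mM and at 0.617, 0.754 and 0.519 CPM at 10 mM, with vehicle at 0.274, 0.833 and 0.797. As among the replication genes, the 1 mM libraries lay above all 6 others. Some of the called members had few reads. One of them, rad51c, was at 0.317, 0.509 and 1.02 CPM at 1 mM and at 0.148, 0 and 0 CPM at 10 mM. Such genes could pass the count filter through the 1 mM libraries alone, which favours a lower value at 10 mM. The count and median of this family are limited by that. The member that rose was RAD54L2, a chromatin remodelling relative, by 0.79.

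Of 15 genes of mitochondrial proteases, peptidases and their partner subunits, 9 were higher and 1 lower, with a median of 0.69. The higher members included the unfoldase genes CLPX and clpxa and the processing peptidase subunit pmpca. The protease clpp, the partner of the unfoldase, did not pass the test. The membrane protease YME1L1 rose from 6.03, 10.9 and 8.09 to 34, 29.2 and 26.6 CPM and the matrix protease LONP1 from 11.7, 17.4 and 13.4 to 35.7, 35.1 and 40.9 CPM. Of 15 monocarboxylate transporter genes, whose products move lactate, pyruvate, ketone bodies and related molecules, 7 were higher and 1 lower, with a median of 1.13, and 2 were lower without 1 mM replicate 3. The largest of these rises was that of slc16a9a, from 5.63, 6.59 and 6.03 to 105, 27.3 and 110 CPM, and slc16a6a fell from 138, 134 and 128 to 60.6, 65.9 and 54.5 CPM. Of 25 importins and exportins, which carry proteins through the nuclear pore, 14 were higher and 1 lower, with a median of 0.60. The lower member was lost without 1 mM replicate 1 or 2 or 10 mM replicate 1 or 3, and 11 to 14 were higher when a library was left out. The importin ipo4 moved from 11, 9.23 and 7.33 to 23.1, 20.4 and 20.8 CPM. Of 23 genes with eif4 symbols, which are translation initiation factors and their binding proteins, 8 were higher and 4 lower, with a median of 0.14. The lower member eif4ebp3l (-0.58) encodes a binding protein and not an initiation factor. Lower members numbered 2 without 1 mM replicate 2 or 10 mM replicate 1 and 1 without 10 mM replicate 3. The helicase gene eif4a1a rose from 13.6, 24.3 and 36.9 to 89.6, 80.2 and 91.9 CPM. Its more abundant paralogue eif4a1b did not pass the test, with 238, 279 and 443 CPM at 1 mM and 325, 323 and 267 CPM at 10 mM. Nor did eif4a2, with a log2 difference of -0.30.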
